A study of Mus musculus with 55 samples.

Results

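The genes for collagen chains were followed through every islet library of the Eed knockout series. The members are the 41 genes whose symbols denote α chains of collagens I to XXVIII in the mouse, out of 47937 genes in the table of read counts, and all 41 were found there by their Ensembl identifiers. Collagens are secreted or membrane-bound proteins whose chains wind around one another into a helix. Fibrillar collagens form the cables of interstitial matrix, the network-forming type IV collagens build the sheets called basement membranes, and smaller families decorate fibrils, anchor sheets or span the plasma membrane. In pancreatic islets the basement membrane lies mainly around capillaries and the islet border, and β cells themselves are known to contribute little of it. Fibrillar collagens there are made by pericytes and fibroblasts.

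Islets were taken from C57B6/J mice of 2 ages, 8 and 25 weeks, and 3 genotypes, and messenger RNA of whole islets was sequenced in 16 libraries. Eed is a core subunit of Polycomb repressive complex 2, the enzyme that places methyl groups on lysine 27 of histone H3 (H3K27me3). In the knockout (KO, Eed -/-) both Eed alleles are floxed and removed by RIP-cre, a Cre recombinase driven by an insulin promoter. The other groups are wild type (WT) and a group given in the labels as "heterzygous" (HET). The methods describe the experimental animals as males. There were 3 WT, 3 HET and 3 KO libraries at 8 weeks, and 3 WT, 2 HET and 2 KO libraries at 25 weeks. A library held islets of 1 or 2 animals, except that each KO library of 25 weeks pooled at least 4. The Cre acts in β cells, so endothelial cells, fibroblasts and other islet cells of a KO animal keep their Eed alleles. Islets were freed with collagenase and picked by hand. The methods mention culture of isolated islets, but for RNA they describe direct lysis of purified islets.

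Libraries held 4645393 to 22925359 counted reads. The level of Eed over the whole gene was 13.4 to 15.6 CPM (read counts relative to the library total, itself scaled by trimmed means) in the 5 KO libraries and 19.2 to 33.1 in the 6 WT libraries, with no overlap, and 16.3 to 20.5 in the 5 HET libraries. The markers of β cells were present in every group, and all 8 had negative log2 fold changes in KO against WT islets at 25 weeks, of which 7 passed the test and Ins2 did not (-3.42 ± 0.96, adjusted p = 0.0626). Their summed level was 122235 to 218342 CPM in WT and 13864 to 17192 CPM in KO islets at that age. In whole islets, a change in the number of cells of one type and a change in the RNA made per cell cannot be told apart. Acinar markers, from exocrine tissue carried along with the islets, ranged from 12485 to 394928 CPM over the libraries, and these bounds are the 2 KO libraries of 25 weeks.

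Before any change with genotype, the chromatin at the collagen start sites in wild-type islets was read from the deposited segmentation, which gives each 200 base bin of the autosomes 1 of 24 states named A to X. Of the 39 autosomal members, 37 (94.9%) started in the bivalent and Polycomb states K to R, against 8509 of 20445 autosomal coding genes (41.6%). The most frequent was state M, which carries both the activating mark H3K4me3 and high H3K27me3 (bivalent): 18 members (46.2%) started there, against 5.74% of coding genes. A further 8 (20.5%) started in L, the bivalent state with high H3K4me3, 7 in N and 2 in O, both Polycomb-repressed. No collagen gene had its annotated gene start in A or B, the active start states that held 44.0% of coding genes. For Col27a1 this depends on the start used: the gene start lies in L, where it is counted here, but the start of its single coding transcript lies in B. The coding transcripts of Col1a2 and Col25a1 likewise start in L, while their gene starts lie in M and N. Of other members counted in M, Col15a1 and Col18a1 have further coding starts in O, and Col6a2 has one in L. The exceptions to the Polycomb pattern were Col10a1, a chain of growth plate cartilage, in J, and Col20a1 in X, while Col17a1 and Col28a1 started in Q, where Polycomb marks are weak. The states describe whole wild-type islets, and state M covered the starts of the most abundant members, Col4a1 and Col4a2, as well as those of nearly silent ones such as Col2a1.

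**Figure D1:**
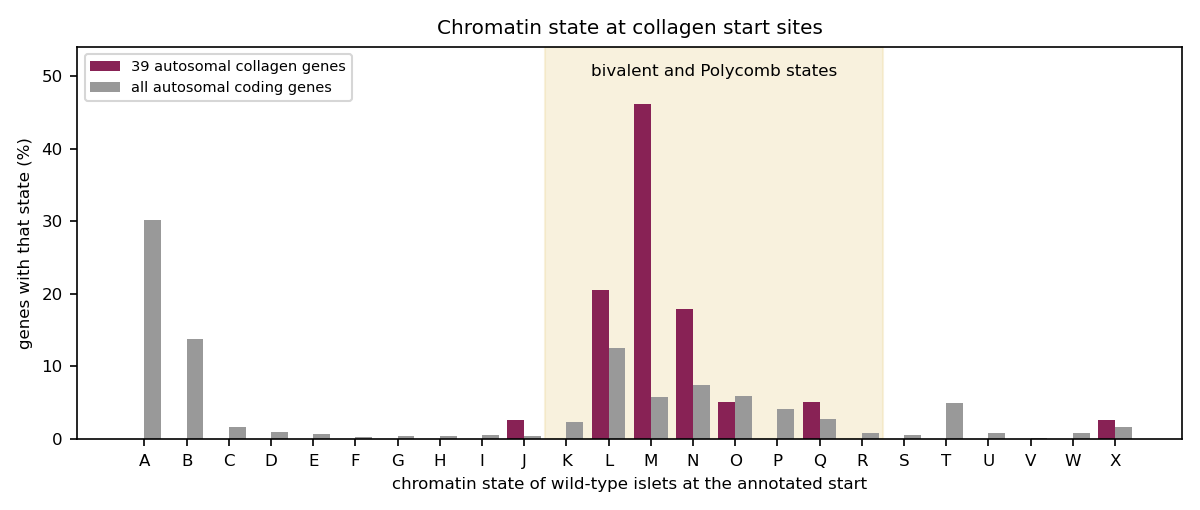
Share of genes (vertical axis, percent) whose annotated start lies in each of the chromatin states of wild-type islets (horizontal axis), for the 39 autosomal collagen genes (dark bars) and all autosomal coding genes (grey bars). The dark bars stand in the shaded bivalent and Polycomb states, with 46.2% in M, and none stand in A or B, where the coding transcript of Col27a1 starts and the grey bars reach 30.2% and 13.8%.

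The sequence before the start differed widely among members in the same kind of chromatin. The 250 bases before the annotated start held a median of 7 CG dinucleotides over the 41 members, from 0 to 31, against a median of 8 over 21607 coding genes. Members starting in L had a median of 16 and those in M 10.5, while those in N or O had 3, and the same windows of all coding genes had medians of 11, 7 and 3. The motif CCAAT, on either strand, lay in 15 of the 41 windows (36.6%) and in 36% of all coding genes. GGGCGG lay in 18 (43.9%, against 39.3%) and TATAAA in 5 (12.2%, against 11.4%). Windows of 4 members are shown here because the results below turn on them: Col9a2, Col8a1 and Col8a2 were called higher in KO islets, and Col3a1 is a leading fibrillar collagen that edgeR did not call (DESeq2 called it at 8 weeks). Each is 5′ to 3′ on the strand of the gene, ends at the base before the start, and has its CG dinucleotides in capitals.
Col9a2 (GRCm38, chr4:121039135-121039384, plus strand, start in M, 2 CG): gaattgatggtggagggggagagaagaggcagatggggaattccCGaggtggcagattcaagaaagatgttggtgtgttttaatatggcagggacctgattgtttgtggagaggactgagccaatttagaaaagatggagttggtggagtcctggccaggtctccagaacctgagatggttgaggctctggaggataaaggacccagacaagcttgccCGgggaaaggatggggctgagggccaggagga
Col8a1 (GRCm38, chr16:57754738-57754987, minus strand, start in L, 10 CG): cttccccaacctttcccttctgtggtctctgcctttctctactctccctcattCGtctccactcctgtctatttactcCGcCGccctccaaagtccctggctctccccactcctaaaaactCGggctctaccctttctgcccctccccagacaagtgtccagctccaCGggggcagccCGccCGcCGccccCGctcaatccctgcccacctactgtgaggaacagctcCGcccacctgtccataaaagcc
Col8a2 (GRCm38, chr4:126286543-126286792, plus strand, start in L, 23 CG): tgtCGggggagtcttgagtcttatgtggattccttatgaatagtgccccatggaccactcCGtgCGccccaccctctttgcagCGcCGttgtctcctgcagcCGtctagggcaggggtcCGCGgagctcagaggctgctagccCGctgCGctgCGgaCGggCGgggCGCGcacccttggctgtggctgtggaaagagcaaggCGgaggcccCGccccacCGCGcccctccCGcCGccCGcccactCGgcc
Col3a1 (GRCm38, chr1:45311288-45311537, plus strand, start in N, 0 CG): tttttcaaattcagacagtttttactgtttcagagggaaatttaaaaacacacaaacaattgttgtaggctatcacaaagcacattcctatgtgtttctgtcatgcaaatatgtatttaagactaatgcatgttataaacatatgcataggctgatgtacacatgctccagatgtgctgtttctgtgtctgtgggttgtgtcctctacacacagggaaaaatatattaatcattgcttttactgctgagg
None of these windows overlaps an annotated exon. Col9a2, the member that rose at both ages, has 2 CG in its window, and Col8a2 has 23, so the members called higher lie at both ends of this range.

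Wild-type islets of 8 weeks set the baseline. Per kilobase of exon, the most abundant chains were Col4a1, at 16.4 CPM per kb (12.2 to 19.4 over the 3 libraries), and Col4a2, at 10.3 (7.85 to 11.9), the partner chains of the ubiquitous basement membrane network, and their ranges did not overlap. Next came Col15a1 at 2.50 CPM per kb, a collagen of the outer face of vascular basement membranes, Col9a2 at 2.13, Col13a1 at 2.03, Col3a1 at 1.87, Col6a1 at 1.50 and Col18a1 at 1.24. The range of each of these 6 overlapped that of the next in the order, so neighbouring ranks are not separated beyond the spread of 3 libraries, while Col9a2 (1.86 to 2.31) and Col6a1 (1.43 to 1.64) did not overlap. Col4a1 and Col4a2 together made up 49.8 to 58.5% of the length-scaled collagen total in WT islets of 8 weeks. Adult cartilage collagen Col2a1, hypertrophic cartilage Col10a1, Col9a1 and the hemidesmosome protein Col17a1 were close to undetected, with 79, 38, 11 and 26 reads over all 16 libraries. They did not pass the filter on low counts, leaving 37 members to test. Of the 37, Col24a1, Col19a1 and Col22a1 held at most 0.309 CPM in any WT library and passed that filter through KO libraries. They could be tested only because they were high there, so they add no support to counts of members higher in KO islets.

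At 8 weeks, the question was whether collagen genes had already moved in KO islets. Of 37 members tested, 2 were called higher in KO than WT (an adjusted p below 0.05 by the quasi-likelihood test of edgeR over all genes) and none lower, 5.41% of the members against 0.428% of all 18685 genes tested. The median log2 fold change was 0.97 over the members and 0.00 over all genes, and 34 of the 37 values were above 0. In 13 of 37 members all 3 KO libraries lay above all 3 WT libraries, as did 6.54% of all genes. Col24a1 and Col19a1, which passed the filter on low counts only through KO libraries, are among the 13. The 2 called were Col9a2 and Col8a2. With the replicate number as a block, neither member was called at this age and neither was any other gene tested. That block compares KO with WT only through libraries that share a number, replicates 1 and 4 at 8 weeks and 2 and 3 at 25 weeks. A call lost with it therefore does not show that a difference is absent. DESeq2 called 8 of 37 members higher, against 1.98% of all genes: Col1a1, Col1a2, Col3a1, Col5a3, Col6a1, Col6a2, Col8a2 and Col9a2. Below, a member is said to be called where edgeR called it without the block, unless another fit is named.

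Col9a2 encodes a chain of collagen IX, a fibril-associated collagen best known from cartilage. Its level in WT islets of 8 weeks was 7.16, 5.75 and 6.88 CPM, and in KO islets 25.9, 22.4 and 22.5 CPM. The values of 25 weeks were 8.28, 7.37 and 6.11 CPM in WT and 25.4 and 27.1 CPM in KO. The 5 KO libraries lay above the 6 WT libraries and above the 5 HET libraries, whose range was 3.72 to 7.64 CPM, so no library of another genotype overlapped. On the log2 scale the KO effect was 1.84 ± 0.20 (SE; adjusted p = 0.00403, 3 and 3 libraries) at 8 weeks and 1.81 ± 0.22 (adjusted p = 0.00137, 2 and 3 libraries) at 25 weeks, with the difference between the ages at -0.03 ± 0.29. Col9a2 was the only member called at both ages by edgeR. It remained called without any 1 library at either age, and its adjusted p with the replicate block was 0.176 at 8 weeks and 0.0222 at 25 weeks. In KO islets it was the third most abundant collagen per kilobase of exon, at 7.62 CPM per kb at 8 weeks and 8.49 at 25 weeks, behind Col4a1 and Col4a2.

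The other chains of collagen IX did not share that level. Col9a3 was 0.444, 0.290 and 1.01 CPM in WT and 1.56, 2.26 and 2.42 CPM in KO islets of 8 weeks. Those of 25 weeks were 0.436, 0.150 and 0.541 CPM in WT and 2.89 and 2.42 CPM in KO. The groups did not overlap at either age, and the log2 fold change was 1.82 ± 0.60 at 8 weeks (adjusted p = 0.391, not called) and 2.78 ± 0.69 at 25 weeks (adjusted p = 0.0397, called; 0.0695 with the replicate block). A stretch of 234 exonic bases of Col9a3, 6.07% of its exons, is shared with Tcfl5 on the opposite strand, and the strand setting of the counting is not given in the sources used here. Col9a1 had 11 reads in all and could not be compared.

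Collagen VIII, a short-chain network collagen of vessel walls and of the membrane below the corneal endothelium, has both of its chains among the called members. Col8a1 was 1.58, 1.51 and 0.688 CPM in WT and 3.84, 5.16 and 1.38 CPM in KO islets of 8 weeks, which overlapped. In islets of 25 weeks it was 3.27, 2.78 and 2.55 CPM in WT against 27.3 and 27.5 CPM in KO. HET libraries held 1.04 to 3.32 CPM, close to WT. The log2 fold change at 25 weeks was 3.21 ± 0.50 (adjusted p = 0.00456), and it was called in every alternative fit at that age. At 8 weeks it was 1.47 ± 0.46 (adjusted p = 0.347), and the gap between the ages, 1.74 ± 0.67, did not pass (adjusted p = 0.531).

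Col8a2 ran the other way with age. In KO islets it stood at 8.68, 3.46 and 3.98 CPM at 8 weeks and at 1.60 and 2.86 CPM at 25 weeks. WT islets held 0.761, 0.523 and 0.847 CPM at 8 weeks and 0.872, 0.752 and 0.464 CPM at 25 weeks. KO libraries exceeded WT libraries at both ages, with a log2 fold change of 2.90 ± 0.51 at 8 weeks (adjusted p = 0.0442) and 1.66 ± 0.56 at 25 weeks (adjusted p = 0.116). The call at 8 weeks was lost with the replicate block (adjusted p = 0.489) and when any 1 of the 11 libraries was left out, and the difference between the ages was -1.24 ± 0.75 (adjusted p = 0.801).

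**Figure D2:**
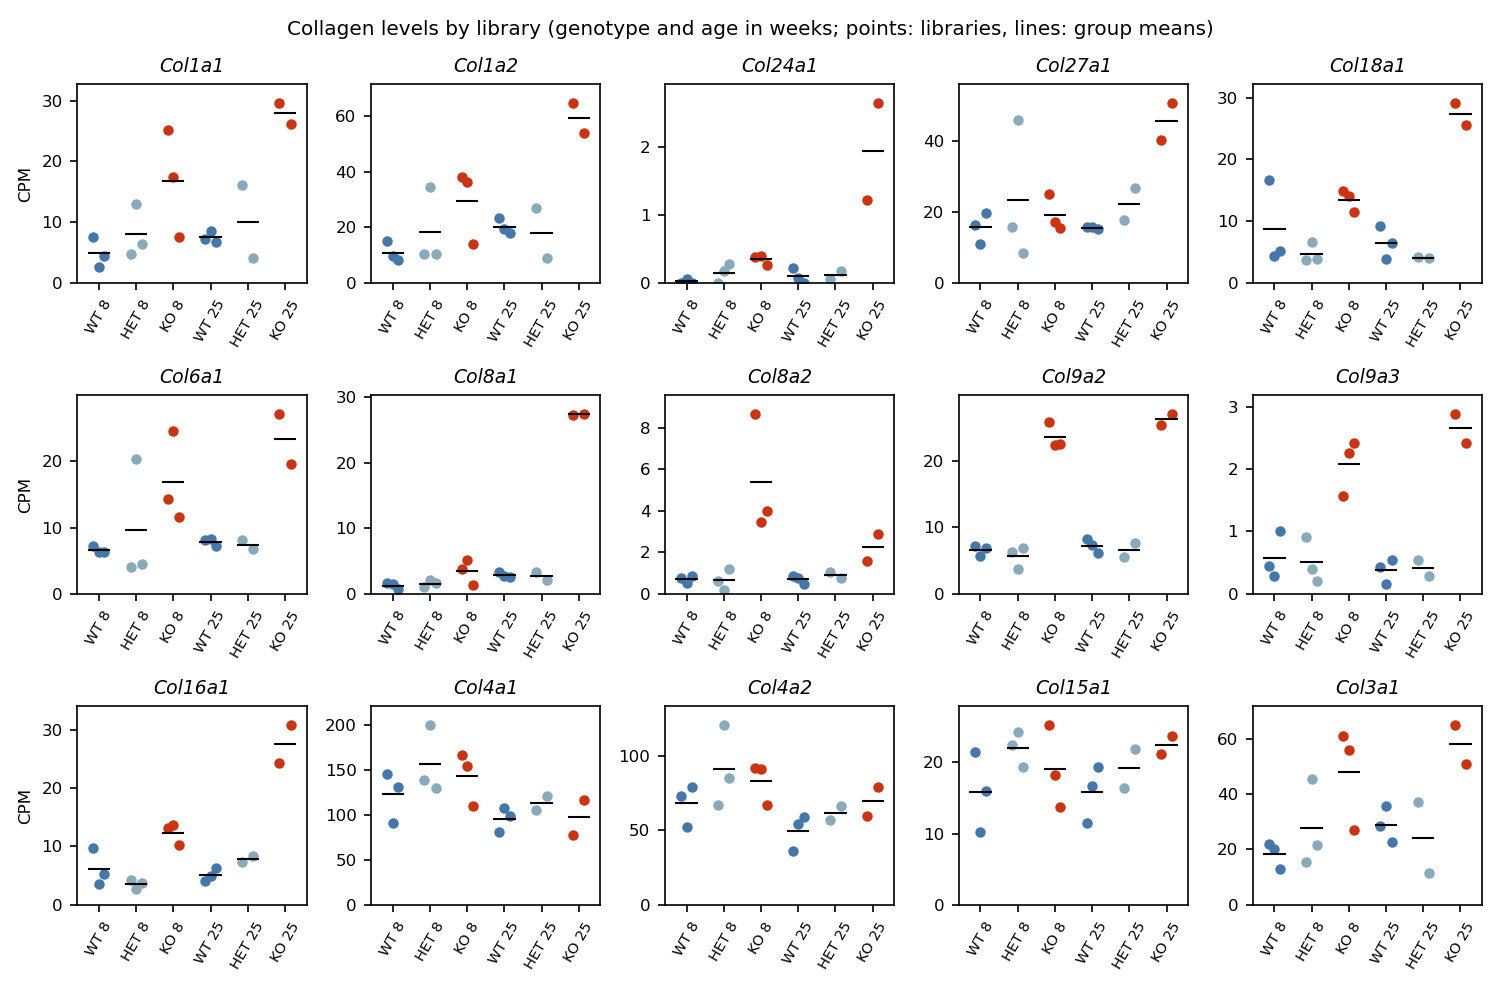
Level (vertical axes, CPM, each from 0) in each of the 16 libraries (points) by genotype and age in weeks (horizontal axes), with lines at the group means, for the 11 members called in KO against WT and for Col4a1, Col4a2, Col15a1 and Col3a1. The KO points of Col9a2 stand above those of every other genotype at both ages, those of Col8a1 rise to 27.3 and 27.5 CPM at 25 weeks, and the points of Col4a1 overlap between genotypes.

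At 25 weeks more of the family stood higher. Of 37 members tested, 10 were called higher in KO than WT and none lower, which is 27.0% of the members against 4.58% of all genes tested. The 10 were Col1a1, Col1a2, Col24a1, Col27a1, Col18a1, Col6a1, Col8a1, Col9a2, Col9a3 and Col16a1. Col24a1 passed the filter on low counts only through KO libraries, as Col19a1 and Col22a1 did, so the counts of this paragraph include members favoured beforehand. The median log2 fold change was 1.51 over the members and 0.03 over all genes, and both KO libraries lay above the 3 WT libraries in 31 of 37 members, as they did in 24.7% of all genes. With the replicate block 7 members were called: Col24a1, Col18a1, Col6a1 and Col9a3 were lost and Col14a1 was gained. DESeq2 called 14 higher, against 7.22% of all genes: the same 10 and Col5a2, Col6a2, Col14a1 and Col25a1. The count rested on few libraries: it was 2 without KO replicate 3, 4 without KO replicate 2, 3 without WT replicate 3, 3 without WT replicate 4 and 6 without KO replicate 4 of 8 weeks. Col9a2 and Col8a1 were called in every one of these fits. Col16a1 was lost without KO replicate 3 alone, and the other 7 were each lost without WT replicate 3, without WT replicate 4 and without KO replicate 3. Of the 11 fits that left out 1 library, Col27a1 was called in 8, Col6a1 in 7, Col24a1 in 6, Col1a1 and Col9a3 in 4 and Col1a2 and Col18a1 in 3. All of these 7 but Col27a1 were also lost without KO replicate 2, and Col1a1, Col1a2, Col18a1 and Col9a3 without WT replicate 2. Losses on leaving out a library of 8 weeks were those of Col1a2 without WT replicate 3, of Col1a1, Col1a2 and Col18a1 without WT replicate 4, of Col18a1 and Col9a3 without KO replicate 5, and of Col1a1, Col1a2, Col24a1, Col18a1 and Col9a3 without KO replicate 4.

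The fibrillar collagens made up 4 of those 10. Type I collagen, the main cable of interstitial matrix, is built from Col1a1 and Col1a2. Col1a1 was 7.19, 8.57 and 6.73 CPM in WT and 29.7 and 26.1 CPM in KO islets of 25 weeks. Col1a2 was 23.3, 19.2 and 18.0 CPM in WT and 64.9 and 53.8 CPM in KO islets. Neither chain overlapped between WT and KO at this age, and their log2 fold changes were 1.84 ± 0.48 (adjusted p = 0.0478) and 1.51 ± 0.39 (adjusted p = 0.0466).

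At 8 weeks the type I chains were less uniform. Col1a1 was 7.54, 2.61 and 4.39 CPM in WT and 25.1, 17.5 and 7.52 CPM in KO islets. Col1a2 was 14.9, 9.47 and 8.04 CPM in WT and 38.0, 36.3 and 13.8 CPM in KO islets. KO replicate 5 fell within the WT range for both while the other KO libraries stood above it, and the log2 fold changes, 1.79 ± 0.44 and 1.45 ± 0.36, were not called (adjusted p = 0.165 and 0.168, and 0.00987 and 0.0136 by DESeq2).

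Col3a1, the collagen III chain that accompanies type I in soft tissue, was 21.9, 20.1 and 13.1 CPM in WT and 61.0, 55.9 and 27.0 CPM in KO islets of 8 weeks. WT islets of 25 weeks held 28.3, 35.8 and 22.8 CPM and KO islets 65.1 and 50.7 CPM. The groups did not overlap at either age, but with log2 fold changes of 1.39 ± 0.32 (adjusted p = 0.136) and 0.95 ± 0.35 (adjusted p = 0.156) it was not called by edgeR, and DESeq2 called it at 8 weeks (adjusted p = 0.00653).

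The minor fibrillar chains reached the test in part. Col27a1, a collagen of cartilage and its anlagen, was 15.7, 15.8 and 15.2 CPM in WT and 40.3 and 50.8 CPM in KO islets of 25 weeks, a log2 fold change of 1.49 ± 0.28 (adjusted p = 0.0119). At 8 weeks it was 16.4, 10.8 and 19.7 CPM in WT and 25.0, 17.1 and 15.3 CPM in KO, which overlapped (0.29 ± 0.26, adjusted p = 0.885), and HET replicate 2 of that age held 45.8 CPM, a level that otherwise occurred in KO islets of 25 weeks. The difference between the ages was 1.20 ± 0.38 on the log2 scale (adjusted p = 0.374). Col24a1 was nearly silent in WT islets, with 1 read over the 3 libraries of 8 weeks and 2 over those of 25 weeks. KO islets held 19 reads at 8 weeks (0.379, 0.401 and 0.259 CPM) and 82 at 25 weeks (1.22 and 2.66 CPM). Relative to WT this was 33.3 times at 25 weeks (95% counting interval 8.93 to 280, adjusted p = 0.0343, and 0.158 with the replicate block) and 18.7 times at 8 weeks (2.98 to 778, adjusted p = 0.304). These intervals cover counting error only. The type V chains, which regulate fibril diameter, and the type XI chains had log2 fold changes of 1.06 to 2.66 at 25 weeks with no overlap between WT and KO, and none was called by edgeR against WT alone. DESeq2 called Col5a2, and both Col5a2 and Col11a1 were called against pooled WT and HET controls. All 10 fibrillar members tested lay higher in every KO library than in every WT library at 25 weeks, and 4 passed the test. Among them, Col24a1 had passed the filter on low counts only through KO libraries. Of all genes tested, 24.7% lay in that order at that age.

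Collagen VI forms beaded filaments from Col6a1, Col6a2 and Col6a3, and of these chains Col6a1 alone was called. Col6a1 was 8.06, 8.27 and 7.19 CPM in WT and 27.2 and 19.6 CPM in KO islets of 25 weeks (1.53 ± 0.32, adjusted p = 0.0195; 0.0682 with the replicate block). At 8 weeks it was 7.16, 6.33 and 6.25 CPM in WT and 14.3, 24.6 and 11.6 CPM in KO, also without overlap (1.36 ± 0.29, adjusted p = 0.0980, and 0.00280 by DESeq2). Col6a2, whose gene lies 85162 bases from Col6a1 on chromosome 10, had similar values, 1.45 ± 0.31 at 8 weeks and 1.22 ± 0.34 at 25 weeks, and was not called by edgeR (adjusted p = 0.0970 and 0.0596), though it was by DESeq2 at both ages. Col6a3 overlapped between WT and KO at 8 weeks, with a difference in the direction of the other chains (0.83 ± 0.41, adjusted p = 0.679). At 25 weeks Col6a3 was lower in both KO libraries, at 7.83 and 8.47 CPM, than in WT, at 10.2, 10.5 and 9.20 CPM. That difference of -0.35 ± 0.46 was not called (adjusted p = 0.744). Col6a3 was the single member of the 37 with all KO libraries below all WT libraries, and the share of all genes in that order was not counted.

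Among the other fibril-associated collagens, Col16a1 was the clearest. Collagen XVI links fibrils to the surrounding matrix, and its gene held 4.14, 4.96 and 6.26 CPM in WT and 24.3 and 30.9 CPM in KO islets of 25 weeks (2.36 ± 0.37, adjusted p = 0.00482). At 8 weeks the values were 9.70, 3.54 and 5.24 CPM in WT and 13.2, 13.6 and 10.3 CPM in KO, which did not overlap (1.02 ± 0.34, adjusted p = 0.402). HET libraries lay between 2.62 and 8.34 CPM. Without KO replicate 3 of 25 weeks it was not called, and it was called without any other library and with the replicate block. Col14a1, a collagen of the fibril surface, held 10.0, 4.44 and 4.25 CPM in WT and 27.0 and 16.7 CPM in KO islets of 25 weeks, a difference of 1.79 ± 0.56 that was not called (adjusted p = 0.0934) but was with the replicate block (adjusted p = 0.0478), by DESeq2, with no filter on low counts and with pooled controls. The remaining 4 tested members of this class, Col12a1, Col19a1, Col20a1 and Col22a1, had log2 fold changes of 0.95 to 2.18 at 25 weeks, and none was called. Col19a1 had 2 reads in WT and 28 in KO islets of 8 weeks, with 21, 3 and 4 in KO replicates 1, 4 and 5. This is 13.8 times the WT level (95% counting interval 3.48 to 120). The spread between libraries does not enter that interval, and the difference was not called (adjusted p = 0.491).

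None of the 6 basement membrane chains of type IV was called. Col4a1 was 145, 91.2 and 131 CPM in WT and 166, 154 and 110 CPM in KO islets of 8 weeks. At 25 weeks it was 80.6, 107 and 98.2 CPM in WT and 77.9 and 116 CPM in KO. The groups overlapped at both ages, with differences of 0.23 ± 0.25 (adjusted p = 0.915) and -0.03 ± 0.28 (adjusted p = 0.970), and the latter turned positive when libraries were scaled by total count alone, with no filter on low counts, without WT replicate 3 and without KO replicate 2. Col4a2 was 73.1, 51.9 and 79.0 CPM in WT and 91.5, 90.9 and 66.9 CPM in KO islets of 8 weeks. At 25 weeks it was 35.9, 54.4 and 59.0 CPM in WT and 59.8 and 79.3 CPM in KO, a difference of 0.42 ± 0.27 (adjusted p = 0.439). The KO libraries of 25 weeks stood just above WT for Col4a2 and not for Col4a1.

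The 2 genes start 21 bases apart on opposite strands of chromosome 8, with 22 exonic bases in common. Their partners are arranged likewise: Col4a3 and Col4a4, of the glomerular and alveolar network, start 72 bases apart on chromosome 1, and Col4a5 and Col4a6 start 1309 bases apart on the X chromosome. Col4a3 and Col4a4 stayed within 4.56 CPM in all libraries, with differences of 0.06 ± 0.72 and 0.37 ± 0.44 at 25 weeks. Col4a5 was 2.40, 2.33 and 3.87 CPM in WT and 7.76 and 10.1 CPM in KO islets of 25 weeks (1.57 ± 0.60, adjusted p = 0.167), and it was called against pooled WT and HET controls. Col4a6 was 0.436, 0.376 and 0.155 CPM in WT and 1.22 and 0.887 CPM in KO islets of 25 weeks (1.69 ± 1.49, adjusted p = 0.597). In 4 of the 6 type IV genes, Col4a2, Col4a4, Col4a5 and Col4a6, both KO libraries of 25 weeks lay above all WT libraries. The same held for 24.7% of all genes tested. None of the 6 was called by edgeR against WT at either age, with a median change of 0.25 (log2) at the younger and 0.40 at the older age, against 1.38 and 1.50 for the fibrillar members.

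The multiplexins, basement membrane collagens with interrupted helices, parted. Col15a1 was 21.4, 10.2 and 16.0 CPM in WT and 25.3, 18.2 and 13.7 CPM in KO islets of 8 weeks, and 11.5, 16.7 and 19.3 CPM in WT and 21.1 and 23.7 CPM in KO islets of 25 weeks. It was not called at either age (0.27 ± 0.31 and 0.44 ± 0.35). Col18a1, the source of endostatin, was 16.7, 4.30 and 5.13 CPM in WT and 14.9, 14.0 and 11.5 CPM in KO islets of 8 weeks, where WT replicate 1 exceeded every KO library. At 25 weeks it was 9.15, 3.83 and 6.42 CPM in WT and 29.2 and 25.5 CPM in KO, and there was no overlap (2.05 ± 0.53, adjusted p = 0.0457; 0.0660 with the replicate block).

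Among the membrane-spanning collagens, Col13a1 held 7.54, 8.25 and 12.3 CPM in WT and 12.7, 15.7 and 15.0 CPM in KO islets of 8 weeks (0.63 ± 0.24, adjusted p = 0.532). At 25 weeks it held 9.80, 11.8 and 11.0 CPM in WT and 12.2 and 12.2 CPM in KO (0.11 ± 0.27, adjusted p = 0.871). Col23a1 and Col25a1, at 0 to 1.14 CPM in WT, had differences of 2.65 ± 0.83 and 2.78 ± 0.83 at 25 weeks, which were not called (adjusted p = 0.0939 and 0.0766), although DESeq2 called Col25a1. Col7a1, of the anchoring fibrils of skin, ranged from 4.11 to 70.6 CPM and its groups overlapped at both ages (-0.79 ± 0.84 and 1.08 ± 0.91), with 70.6 and 19.2 CPM in the KO libraries of 25 weeks alone. In each of the 6 groups its highest library was also the library with the highest sum of acinar markers, and the part of exocrine tissue in its values was not tested. Col26a1 and Col28a1 were not called.

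**Figure D3:**
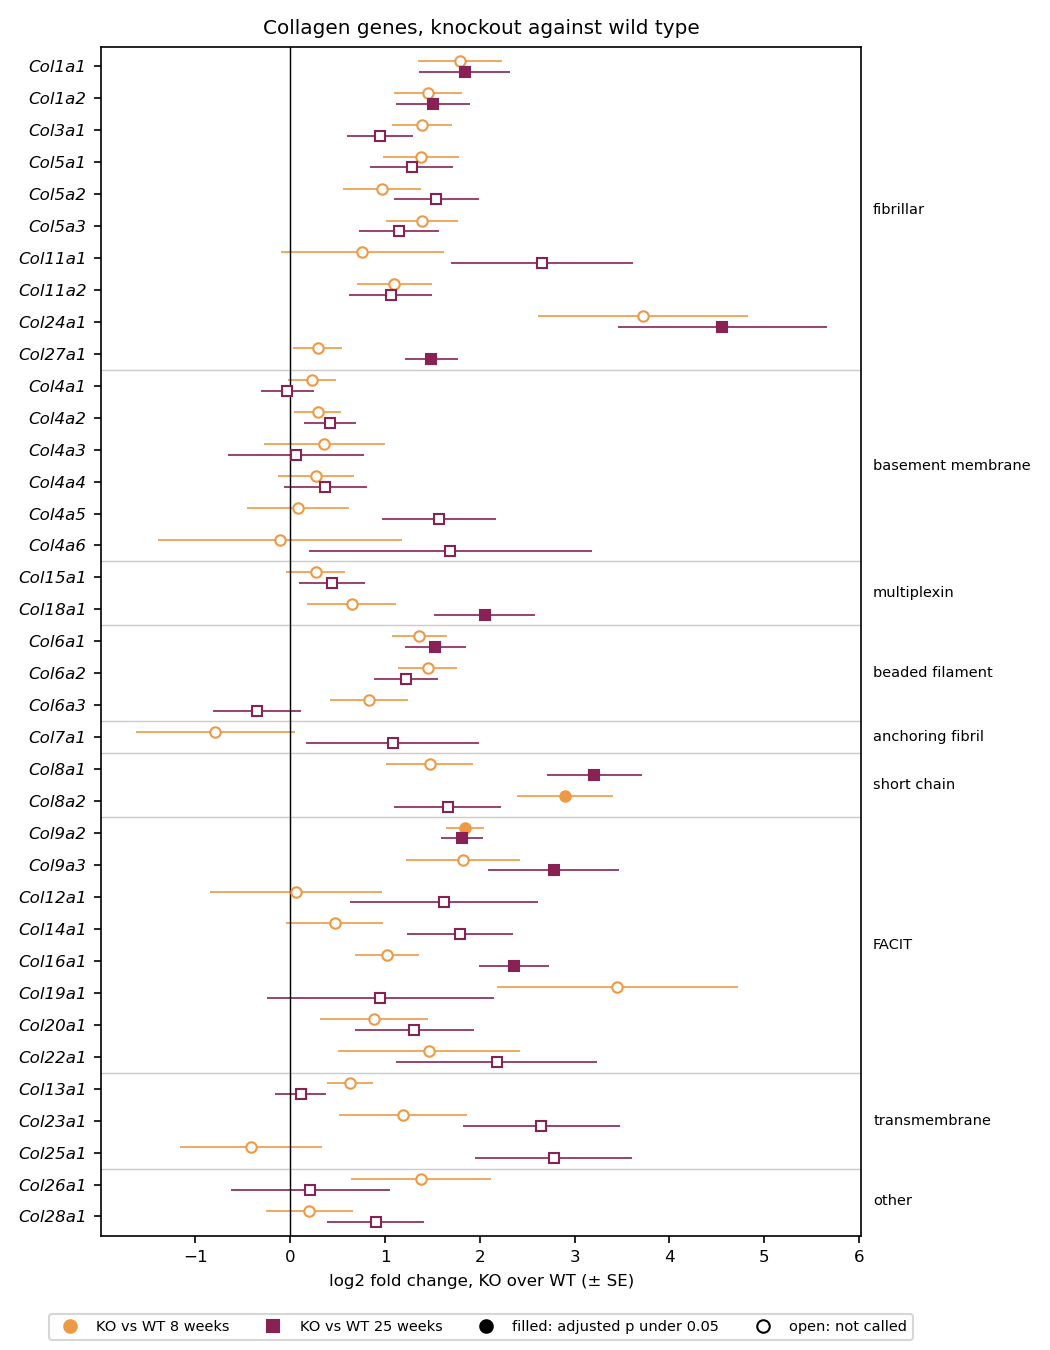
Log2 fold change of KO over WT with its standard error (horizontal axis) for the 37 members tested (vertical axis, grouped by class), at 8 weeks (circles) and 25 weeks (squares), filled where the adjusted p was under 0.05. The fibrillar members lie between 0.95 and 4.56 at 25 weeks, and the type IV members between -0.03 and 1.69, with Col4a1 to Col4a4 at 0.42 or below and Col4a5 and Col4a6 within the fibrillar range.

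The make-up of the collagen total shifted accordingly. Summed per kilobase over all 41 members, WT islets of 8 weeks held 61.3, 37.8 and 50.4 CPM per kb and KO islets 92.2, 85.1 and 59.9. At 25 weeks WT islets held 44.6, 50.5 and 52.5 and KO islets 99.9 and 101. The share of Col4a1 and Col4a2 in this total was 39.1 to 41.4% in KO islets of 8 weeks, below the WT range of 49.8 to 58.5%, and 19.5 and 27.3% in KO islets of 25 weeks, below 36.4 to 44.7% in WT. Col1a1, Col1a2 and Col3a1 together were 13.4 and 16.4% of the total in KO and 9.14 to 13.1% in WT islets of 25 weeks, with HET islets at 15.4 and 4.88%. At 8 weeks the ranges overlapped, with 8.37 to 14.2% in KO and 5.25 to 8.49% in WT islets.

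The start states were set beside these calls. Of the 17 tested members starting in M, 5 were called at 25 weeks and the median log2 fold change of the 17 was 1.06. Among all 822 coding genes tested with that state 27.0% were called higher, a share near that of the members, and the median was 2.07. Of 8 members starting in L, 3 were called, with a median of 2.07, against 14.5% and 0.95 over 2320 coding genes. Both members starting in O, Col6a1 and Col9a3, were called, and neither was with the replicate block (adjusted p = 0.0682 and 0.0695). None of the 6 tested members in N was called, where 7.76% of 490 coding genes were called higher. Over states K to R together, 10 of 34 members (29.4%) and 13.2% of 4960 coding genes were called higher, and coding genes starting in A or B were called higher in 1.12% of 8784 cases. In O, where both members were called, 2.70% of 629 coding genes were called higher. Col27a1, counted in L by its gene start, has its coding transcript start in B. Of the called members counted in M, Col1a2 has its coding transcript start in L, and Col18a1 has coding starts in O as well as M.

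No collagen gene passed the test for a different KO effect at the 2 ages, by edgeR or DESeq2. By edgeR 0.198% of all genes did. Of the 37 members, 4 had an unadjusted p under 0.05: Col27a1, Col8a1, Col16a1 and Col25a1, each with the larger effect at 25 weeks. The share of all genes under that unadjusted threshold is not given here. The comparisons of WT islets between ages share their libraries with both KO comparisons. None of the 37 members was called between WT islets of 25 and 8 weeks by edgeR or DESeq2, and 0% of all genes were by edgeR. An unadjusted p under 0.05 was seen for 5 members, all higher at 25 weeks: Col1a2, Col5a1, Col6a2, Col6a3 and Col8a1. Again the share of all genes at that threshold is not given.

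HET islets were then set against WT islets. No member of the 36 tested was called at 8 or 25 weeks by edgeR or DESeq2, and 0% of all genes were at either age by edgeR. An unadjusted p under 0.05 was reached by 4 members at 8 weeks and 0 at 25 weeks, a threshold for which the share of all genes is not given. Over the members the median difference on the log2 scale was 0.39 at the younger and 0.11 at the older age. HET replicate 2 of 8 weeks stood apart for interstitial chains, with 45.5 CPM of Col3a1, 34.4 of Col1a2 and 20.4 of Col6a1, where the other HET libraries of that age held 15.6 and 21.7, 10.4 and 10.5, and 4.04 and 4.54. Its mesenchymal marker sum was the highest of the 16 libraries, at 636 CPM. Its Col9a2 level, 3.72 CPM, was the lowest of the 16. At 25 weeks HET replicate 1 exceeded replicate 2 for Col1a1 (16.1 against 4.08 CPM) and Col3a1 (37.2 against 11.3 CPM).

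Against HET islets, which share the KO libraries with the comparisons above, 3 of 36 members were called higher in KO at 8 weeks, against 3.60% of all genes: Col9a2 (2.07 ± 0.25, adjusted p = 0.00113), Col16a1 (1.82 ± 0.34, adjusted p = 0.0130) and Col8a2 (3.05 ± 0.62, adjusted p = 0.0191). Without WT replicate 1 or KO replicate 1 of 8 weeks that count was 5. At 25 weeks 6 of 36 were called higher, against 5.41% of all genes: Col9a2 (1.99 ± 0.30, adjusted p = 0.00158), Col8a1 (3.32 ± 0.57, adjusted p = 0.00360), Col18a1 (2.75 ± 0.59, adjusted p = 0.0123), Col14a1 (3.03 ± 0.68, adjusted p = 0.0150), Col16a1 (1.81 ± 0.41, adjusted p = 0.0155) and Col11a1 (4.37 ± 1.16, adjusted p = 0.0350). Of the 10 members called against WT at 25 weeks, 4 were also called against HET. Those not called were Col1a1, Col1a2, Col24a1, Col27a1, Col6a1 and Col9a3 (adjusted p = 0.201, 0.120, 0.0555, 0.288, 0.119 and 0.0537). Col27a1 was also not called with WT and HET pooled as control. The count at 25 weeks was 1 without HET replicate 2, 3 without HET replicate 1, 3 without KO replicate 2 and 10 without HET replicate 1 of 8 weeks.

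The summed marker RNA of other cell types was set beside these results. The 15 mesenchymal markers, of fibroblasts and pericytes, summed to 255 to 320 CPM in WT and 436 and 585 CPM in KO islets of 25 weeks, and to 272 to 337 and 333 to 433 CPM at 8 weeks. Of the 15, 1 was called higher at 25 weeks, Pdgfra (2.79 ± 0.55, adjusted p = 0.0149), and 12 of 15 values were above 0. That share is near the 4.58% of all genes called higher at that age, and at 8 weeks none of the 15 was called. The summed fibrillar and type VI collagens were 106 to 127 CPM in WT and 289 and 313 CPM in KO islets at that age. In each of the 6 groups the library with the highest sum of these collagens was also the one with the highest mesenchymal sum. The same held for the Schwann cell sum in 6 of 6 groups and for the endothelial and macrophage sums in 4 of 6, so this match was not particular to mesenchymal markers. No mesenchymal marker was at 0 in a group, and the part of mesenchymal cells in the rise of these collagens was not tested. The 12 endothelial markers summed to 392 to 415 CPM in WT and 419 and 534 CPM in KO islets of 25 weeks, and none was called.

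Other lists were read against the 4.58% of all genes called higher at 25 weeks. Schwann cell markers summed to 22.9 to 97.8 CPM in WT and 71.4 and 129 CPM in KO islets of 25 weeks, with 1 of 8 called, Gfra3 (3.54 ± 0.37, adjusted p = 0.000615). Duct markers had 3 of 7 tested called higher, Spp1, Sox9 and Krt19, and summed to 587 and 731 CPM in KO against 266 to 326 CPM in WT, with Cldn18 at 0 reads in both groups. Macrophage markers had 1 of 9 called higher, Ptprc, and summed to 178 and 511 against 104 to 209 CPM. Of 7 alpha and delta cell markers, 1 was called higher, Irx2, and none of 10 acinar markers was called. Whether any of these cells carried the rise of Col9a2, Col8a1 or Col16a1 was not tested.

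**Figure D4:**
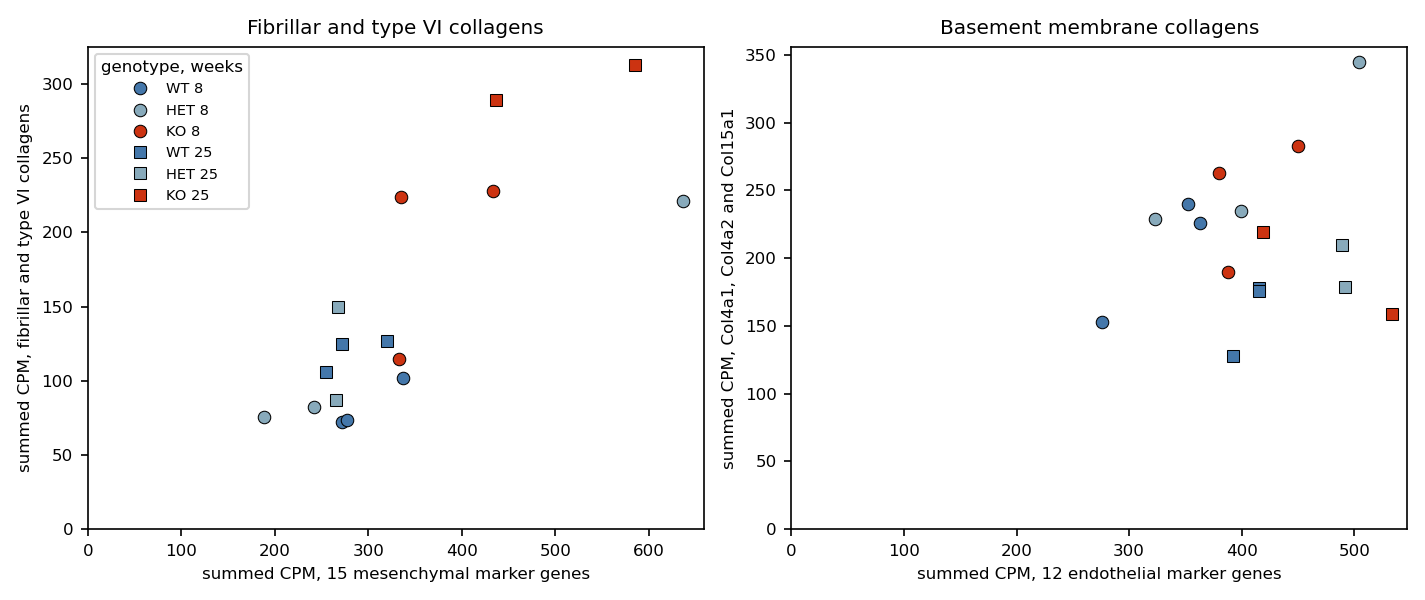
Summed levels in each library (CPM on both axes, points coloured by genotype, circles for 8 and squares for 25 weeks): fibrillar and type VI collagens against 15 mesenchymal markers (left) and Col4a1, Col4a2 and Col15a1 against 12 endothelial markers (right). The KO libraries of 25 weeks hold the highest collagen sums on the left, 289 and 313 CPM, and HET replicate 2 of 8 weeks the highest mesenchymal sum, 636 CPM.

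The genes that make, bind and break down collagen were read from lists of their own. Among 27 tested genes of collagen synthesis, 2 were called higher and 3 lower in KO islets of 25 weeks, where 4.58% of all genes were called higher and 2.02% lower. Plod2, a lysyl hydroxylase of collagen crosslinking, rose from 1.47 to 2.48 CPM in WT to 9.81 and 10.6 CPM in KO (2.27 ± 0.42, adjusted p = 0.0109). Serpinh1, the collagen chaperone of the endoplasmic reticulum, rose from 10.8 to 13.3 CPM to 23.3 and 31.6 CPM (1.18 ± 0.23, adjusted p = 0.0121). Loxl2, a lysyl oxidase that crosslinks matrix, fell from 19.1 to 22.7 CPM to 3.35 and 3.59 CPM (-2.66 ± 0.25, adjusted p = 0.000377). Bmp1, the protease that trims the ends of fibrillar procollagens, fell from 93.0 to 107 CPM to 37.9 and 45.0 CPM (-1.30 ± 0.26, adjusted p = 0.0168). The third that fell was Mia3, which loads procollagen for export, from 221 to 240 CPM to 110 and 128 CPM (adjusted p = 0.0440). Genes of this list thus moved in both directions, with a median of 0.57.

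The lists that follow are again set against 4.58% of all genes called higher. Of 16 basement membrane partners 1 was called higher, a share near that background, the laminin chain Lamb1 (0.90 ± 0.23, adjusted p = 0.0468), with a median of 0.82 over the list. Of 20 interstitial matrix partners 1 was called higher, again near the background, decorin (Dcn, 1.89 ± 0.46, adjusted p = 0.0352), with a median of 1.50 and 19 values above 0, and Lum and Bgn had values of 1.96 ± 0.53 and 1.85 ± 0.52 (adjusted p = 0.0545 and 0.0624). None of the 11 collagen receptors tested was called by edgeR and 3 had an unadjusted p under 0.05, in both directions: Adgrg6 at 1.89 ± 0.66 (adjusted p = 0.129), Adgrg1 at -0.66 ± 0.24 (adjusted p = 0.142) and Mrc2 at 1.73 ± 0.64 (adjusted p = 0.156). Of 10 tested genes of collagen turnover 2 were called higher, the gelatinase Mmp9 (3.19 ± 0.72, adjusted p = 0.0269) and the inhibitor Timp2 (1.48 ± 0.37, adjusted p = 0.0388), and the list had a median of 1.23. At 8 weeks no gene of these 5 lists was called by edgeR, and 3, 1, 6, 1 and 3 had an unadjusted p under 0.05 in the order given. Shares of all genes at that unadjusted threshold are not given, here or for the receptors above.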

How the data were processed

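The authors deposited raw read counts per gene for 16 islet RNA libraries, which they made with TopHat 2.0.13 on GRCm38 and featureCounts (Subread 1.5.0-p1), and a segmentation of wild-type islet chromatin into lettered states, used as names. The strand setting is not given in the sources used here. Gene symbols, exon lengths and starts came from GENCODE M21, which matched 47224 of 47937 identifiers and left 713 without a name. Counts were tested with edgeR 4.0.16 (R 4.3.3; TMM scaling, filterByExpr, quasi-likelihood test, Benjamini-Hochberg adjustment over all genes, threshold 0.05): KO against WT and the ages in 1 fit of 4 groups, and the HET comparisons in 1 fit of 6 groups. Labels do not name the animals, so p-values measure the spread between libraries. Replicate numbers do not come with a stated meaning. The 4 WT and KO pairs that share a number had correlated deviations from their group means (0.273 to 0.579). With 2 KO libraries at 25 weeks those deviations mirror each other. At 8 weeks WT and KO pairs of unlike number ran from -0.599 to 0.571, so the correlations do not settle whether numbers mark pairs. Blocked values are given where KO against WT calls changed, and as counts for KO against HET. Alternatives were DESeq2 1.42.0, its size factors, library size alone, no filter, the replicate block, pooled WT and HET controls and leaving out each library. A ratio with 3 or fewer reads in the control has an exact conditional interval. Promoter windows were read from RefSeq's GRCm38 genome. Named with all libraries are members called in KO against WT or between ages and the 8 highest per kilobase in WT islets of 8 weeks; of each list, up to 4 genes with the smallest adjusted p at 25 weeks; Mia3 and the other members given with values were added after their values were seen. No 2 libraries of a group agreed within sampling noise (chi-square per degree of freedom of 31.03 or more). The fitting code was tested on simulated data. The members and lists were chosen with earlier results of these data known.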

Additional observations from a re-analysis of the deposited data

How the results depend on the processing

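Calls at 8 weeks were the least stable. Against the 2 members called in KO over WT at that age, 1 was called with library size alone, 8 with DESeq2, 0 with the replicate block and 5 with WT and HET pooled as control, and leaving out each library gave 1 to 2. At 25 weeks the 10 called became 14 with DESeq2, 8 with library size alone, 7 with the replicate block, 16 with the pooled control and 2 to 10 when each library was left out. Calls over all genes, in either direction, numbered 81 at 8 weeks, and 70 with library size alone, 393 with DESeq2 and 0 with the replicate block. At 25 weeks they numbered 1234, and 882, 2088 and 1026 in the same order. For the pooled control, the libraries left out and the alternatives of KO against HET, the share of all genes is not given here. KO against HET gave 7 with DESeq2 in place of 3 at 8 weeks and 2 to 5 without each library, and 11 with DESeq2 in place of 6 at 25 weeks and 1 to 10 without each library. With the replicate block across ages 1 member, Col1a2 (adjusted p = 0.0312), was called between WT islets of 25 and 8 weeks, in place of 0. No alternative gave a call for HET against WT at either age or for the age difference of the KO effect. Signs reversed for Col27a1 at 8 weeks with the pooled control (-0.0246) and for Col4a1 at 25 weeks with library size alone (0.299), with no filter (0.0391), without WT replicate 3 (0.0542) and without KO replicate 2 (0.21), none of them called. Over each library left out, Col4a1 at 25 weeks ran from -0.339 to 0.21. Scaling by library size alone moved the median log2 fold change of all genes to 0.204 at 8 weeks and 0.264 at 25 weeks. The causes of these differences were not tested. Of HET and WT at 25 weeks and of KO and HET, the groups share fewer than 2 replicate numbers, so a block linking the numbers through the other genotype was added after seeing the data: it gave 0 calls for HET against WT at 25 weeks, 0 in place of 3 for KO against HET at 8 weeks and 4 in place of 6 at 25 weeks. HET libraries shared little with their numbers (correlations of 0.0292 to 0.156). Groups of 2 or 3 libraries are too small for a test of outlying libraries.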
